A study of Homo sapiens with 3 samples.

Results

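The claudin genes CLDN1, CLDN3, CLDN4, CLDN7, CLDN8, CLDN12 and CLDN23 and the tight junction genes OCLN, TJP1 and F11R were followed through RNAseq of xenograft tumors. They were chosen by name, with earlier results of these data known, and all 10 were found among the 29689 genes of the deposited table. The tumors grew from SUM-149, a human TNBC cell line, which was mixed with Matrigel and placed in the mammary fat pads of female Nu/Nu hosts. These mice lack a thymus and most T cells but keep other host cells. 1 tumor library received vehicle, 1 the CDK2 inhibitor dinaciclib (CDK2i) and 1 the EZH2 inhibitor EPZ6438 (EZH2i), each drug for 10 days. Genotype and host were shared by all 3 libraries, and the age of the mice and the number of tumors behind a library are not given in the sources used here. A figure legend of the study names another EZH2 inhibitor, GSK343, for SUM-149 xenografts, so the drug of the EZH2i tumor was taken from the sample label alone. There was no replicate library, so no difference below has a replicate check and no p-value was computed.

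Tight junctions seal the space between neighbouring epithelial cells near their apical border. Claudins and occludin (OCLN) span the membrane, and the claudins present set which ions and small solutes pass between the cells. JAM-A (F11R) is an adhesion molecule of the immunoglobulin superfamily at the same site, and ZO-1 (TJP1) is the scaffold that ties the membrane proteins to actin. In breast, CLDN3, CLDN4 and CLDN7 are typical of luminal epithelium, and the claudin-low subtype of breast cancer is named after its low claudin mRNA.

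The values were log2 FPKM, the fragments of a gene scaled by its length and by library size. Steps of 1 fragment among low values placed the libraries at 16.8 to 19.1 M fragments (M, 1000000), with CDK2i at 1.14 and EZH2i at 1.04 times the depth of vehicle. The labelled cell type was checked against 11 epithelial markers, and all 11 were above log2 FPKM 3 in every tumor. Their summed FPKM was 7695 in vehicle, 16393 in CDK2i and 6775 in EZH2i. The keratins KRT5, KRT6A, KRT8, KRT14, KRT17 and KRT18, and also CDH1, were highest in CDK2i. KRT19 went the other way, at 1144, 883 and 485 FPKM, and EPCAM was at 66.3, 74.0 and 81.0 FPKM in the same order. Stromal cells of the mouse host are murine, so human gene symbols measure them only through reads that align to the human genome. The marker values that follow therefore do not measure how much stroma a tumor held. All 6 endothelial and all 6 leukocyte markers measured were below log2 FPKM 0 in every tumor. The 6 fibroblast markers summed to 24.4, 38.3 and 28.8 FPKM. The 3 adipocyte markers summed to 33.2, 19.3 and 3.50 FPKM in the same order, nearly all of it FABP4, while ADIPOQ was listed at 0 in vehicle and EZH2i. The part of these markers in the results below was not tested. In bulk tumors, fewer cells of a type and less RNA per cell cannot be told apart.

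CLDN7, whose protein sits along the lateral membrane and binds EPCAM, had the highest level of the 10 genes in every tumor (chromosome 17 of GRCh37, 7163222 to 7167302). It was at 79.0 FPKM in vehicle, 85.2 after CDK2i and 57.9 after EZH2i. The vehicle value was above those of 97.1% of all genes with a value other than 0. The log2 change from vehicle was 0.11 in CDK2i and −0.45 in EZH2i, both inside the middle range (10th to 90th percentile) of the 200 genes nearest in mean level, −0.41 to 0.68 and −0.77 to 0.56. A processed pseudogene, CLDN7P1, could share its reads, so the level is uncertain to that extent.

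CLDN4 was the member that set the EZH2i and CDK2i tumors furthest apart among the well-expressed genes. Its protein tightens the paracellular route and serves, like CLDN3, as a receptor of a Clostridium perfringens toxin. The gene lies on chromosome 7 from 73213872 to 73247020. It was at 43.1 FPKM in vehicle, 72.1 after CDK2i and 21.2 after EZH2i, so the CDK2i tumor was highest and the EZH2i tumor lowest. The log2 change was 0.74 in CDK2i, with a 95% counting interval of 0.64 to 0.84, and −1.02 in EZH2i, with an interval of −1.16 to −0.88. Both lay outside the middle range of the 200 genes of like level, which was −0.45 to 0.55 in CDK2i and −0.60 to 0.72 in EZH2i. Set directly against CDK2i, the EZH2i tumor held 0.295 times as much CLDN4 mRNA, a log2 difference of −1.76. Counting intervals were exact (Clopper-Pearson) on approximate fragment numbers and cover counting error only, not the difference between tumors.

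CLDN1, a barrier claudin of the epidermis, was higher in both treated tumors than in vehicle. It lies on chromosome 3 from 190023496 to 190040235. Its level was 25.1 FPKM in vehicle, 35.5 after CDK2i and 42.7 after EZH2i. The log2 change was 0.50 in CDK2i (counting interval 0.41 to 0.60) and 0.77 in EZH2i (0.68 to 0.86). Genes of like level spanned −0.56 to 0.56 and −0.57 to 0.79, so neither change left that range. The order of CLDN4 and CLDN1 was turned in EZH2i, where CLDN1 stood above CLDN4. It was the only change of rank among the 10 members in the 3 tumors.

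CLDN12, a claudin linked to paracellular calcium transport, lies on chromosome 7 from 90013035 to 90142716. It was at 7.64 FPKM in vehicle, 7.94 after CDK2i and 16.2 after EZH2i, so the EZH2i tumor stood alone. The EZH2i tumor was 2.12 times vehicle, a log2 change of 1.09 with a counting interval of 0.92 to 1.25, above the −0.54 to 0.87 of genes of like level. In CDK2i the log2 change was 0.06 and its counting interval, −0.13 to 0.24, spanned 0.

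**Figure D1:**
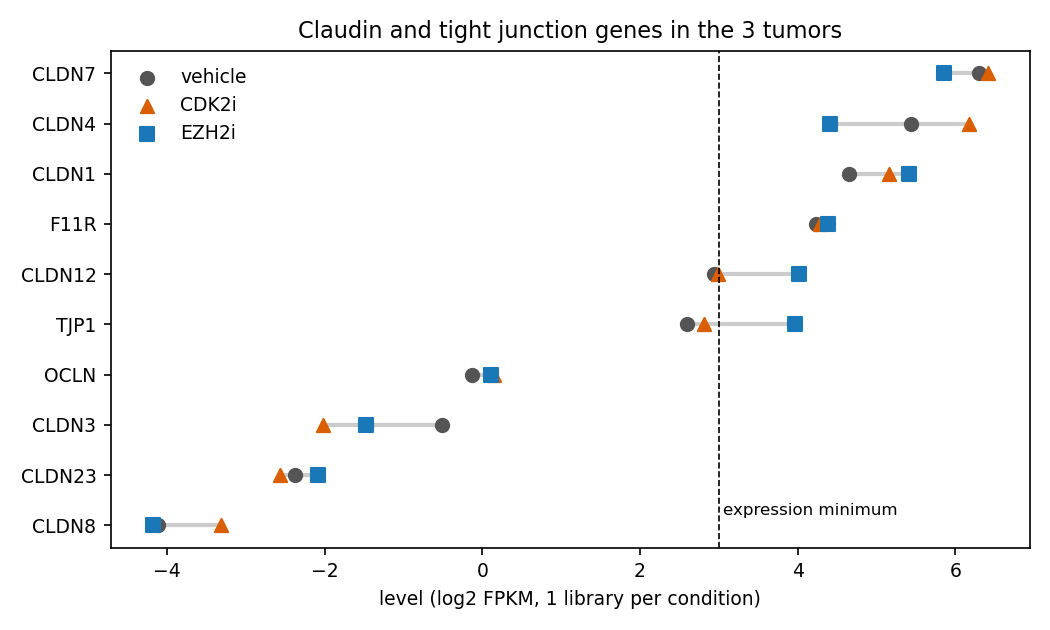
Level of each of the 10 genes (log2 FPKM, horizontal axis) in the vehicle (circle), CDK2i (triangle) and EZH2i (square) tumor, 1 library each, with a grey line from the lowest to the highest and a dashed line at the expression minimum of log2 FPKM 3. CLDN7 is at the top in every tumor, CLDN12 and TJP1 cross the minimum in EZH2i, and OCLN, CLDN3, CLDN23 and CLDN8 stay below it.

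The other 3 claudins of the list were close to silent. CLDN3, the neighbour of CLDN4, was at 0.702 FPKM in vehicle, 0.246 after CDK2i and 0.359 after EZH2i, which stand for 15, 6 and 8 fragments. Its log2 changes, −1.51 in CDK2i and −0.97 in EZH2i, were negative, but their counting intervals of −3.16 to −0.06 and −2.41 to 0.36 nearly reached or spanned 0. CLDN8, which limits cation passage in the distal nephron, rested on 2, 4 and 2 fragments (0.0576, 0.101 and 0.0552 FPKM). CLDN23 rested on 7, 7 and 9 fragments, at 0.192, 0.169 and 0.237 FPKM. No difference in CLDN8 or CLDN23 was detectable at this depth.

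CLDN3 (73183327 to 73184600, minus strand) and CLDN4 (plus strand) lie 29271 bases apart on chromosome 7, yet their mRNA levels were far apart in every tumor. CLDN4 exceeded CLDN3 61.5-fold in vehicle, 293-fold in CDK2i and 59.2-fold in EZH2i, with the CLDN3 side of each ratio resting on 15 fragments or fewer. CLDN1 shows the same contrast with CLDN16, which starts 94 bases away on the opposite strand and whose log2 FPKM was −1.02, −0.24 and −1.59 in vehicle, CDK2i and EZH2i. High and low claudin genes thus stood side by side at both places. Other neighbours did not include a high gene. CLDN6 and CLDN9, 206 bases apart on chromosome 16, were at log2 FPKM −1.28 and 0.14 in vehicle. Both of these, and the neighbours CLDN8 and CLDN17, stayed below the expression minimum in every tumor.

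The sequences before the start sites of the 3 members past the thresholds described below, and of CLDN3 as the weakly expressed neighbour of CLDN4, are shown because the members differed in letters as well as in level. They are RefSeq sequences from a table on GRCh38.p14, whose 250-base windows were matched letter for letter to GRCh37, the build of the coordinates given. They are written 5′ to 3′ on the strand of the gene, and capitals mark CG dinucleotides. Each stops where an annotated exon of any transcript starts or, as for TJP1, at the end of the window. For CLDN4 the window falls inside an exon of a longer transcript, so only its last 30 bases are shown.
CLDN4, chr7:73245296-73245325, plus strand: ccatataactgctcaacctgtcccCGagag
CLDN3, chr7:73184601-73184850, minus strand: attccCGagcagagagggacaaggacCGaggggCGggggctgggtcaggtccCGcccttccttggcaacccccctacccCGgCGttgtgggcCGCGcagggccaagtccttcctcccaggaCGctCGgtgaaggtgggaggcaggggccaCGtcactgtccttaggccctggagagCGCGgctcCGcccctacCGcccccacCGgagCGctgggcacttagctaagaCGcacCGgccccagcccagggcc
CLDN12, chr7:90032525-90032699, plus strand: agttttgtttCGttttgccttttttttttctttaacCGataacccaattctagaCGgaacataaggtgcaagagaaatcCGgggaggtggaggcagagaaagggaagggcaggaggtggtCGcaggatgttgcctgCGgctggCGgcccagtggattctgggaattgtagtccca
TJP1, outermost start, chr15:30261253-30261502, minus strand: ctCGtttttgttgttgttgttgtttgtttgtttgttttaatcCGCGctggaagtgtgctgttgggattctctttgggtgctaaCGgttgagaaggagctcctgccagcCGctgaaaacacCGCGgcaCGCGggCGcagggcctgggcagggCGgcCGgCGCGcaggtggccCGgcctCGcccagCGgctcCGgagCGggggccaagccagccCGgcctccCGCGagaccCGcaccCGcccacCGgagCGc

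Over the whole 250 bases, CLDN4 held 4 CG dinucleotides, against 19 for CLDN3, 12 for CLDN12 and 26 for this start of TJP1. The other starts of TJP1 held 27, 19 and 2, and which start was used in these tumors was not measured. The median over 35116 such windows of all genes was 11, and 34.3% of them held 4 or fewer. The table held 12 windows of 7 members and none of CLDN8, CLDN23 or F11R. The letters CACCTG or CAGGTG, the E-box that SNAI and ZEB repressors bind, were in 4 of the 12 windows, from CLDN7, TJP1 and OCLN, and in 17.5% of all windows. 1 of the windows of CLDN7 held 4 of them. Neither AACCNGTT nor its reverse complement AACNGGTT, the motif of grainyhead-like factors, was in a window of these 7 members, and 1.49% of all windows held one. No binding was measured in these tumors, and a match of letters is no site.

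The shares of CLDN7, CLDN4, CLDN1, CLDN12 and CLDN15 in the claudin mRNA stood further from vehicle in EZH2i than in CDK2i. Over 21 claudin genes the summed FPKM was 169.6 in vehicle, 218 in CDK2i and 159 in EZH2i. CLDN7, CLDN4 and CLDN1 together made up 86.8%, 88.3% and 76.8% of it. CLDN4 alone took 25.4% in vehicle, 33.0% in CDK2i and 13.4% in EZH2i. CLDN1 took 14.8%, 16.3% and 26.9%, CLDN12 4.51%, 3.64% and 10.2%, and CLDN15 6.23%, 5.57% and 8.27%. For CLDN7, at 46.6%, 39.0% and 36.5%, the CDK2i tumor lay nearer to EZH2i than to vehicle. The ratio of CLDN4 to CLDN1 was 1.72 in vehicle, 2.03 in CDK2i and 0.498 in EZH2i. Within a library these ratios do not depend on the scaling between libraries, although they do depend on the gene lengths used by the authors. They do move with base composition, described below: with the trend over GC content and length taken out of both changes, the ratio in EZH2i was 0.944.

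**Figure D2:**
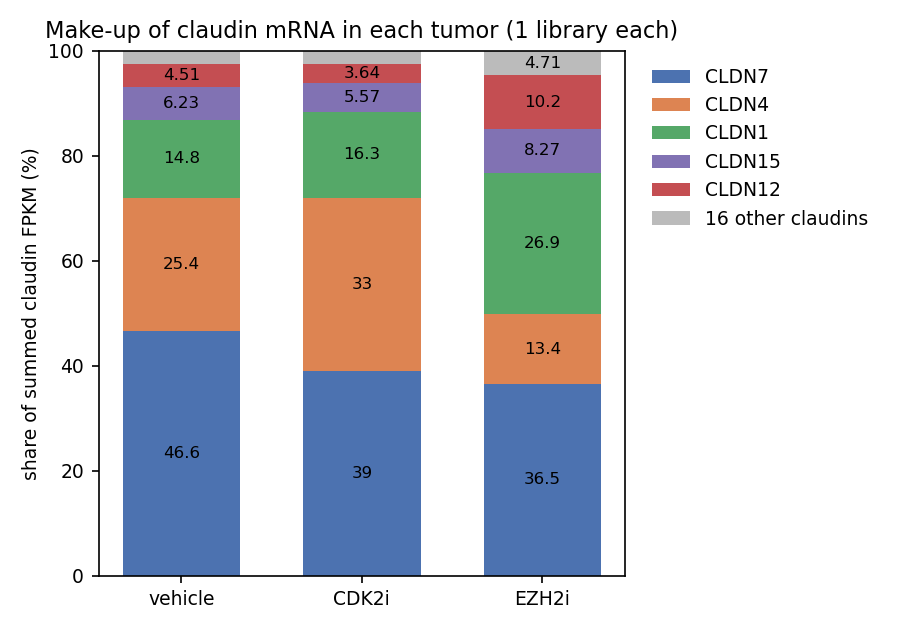
Share of each claudin in the summed FPKM of 21 claudin genes (percent, vertical axis) in the vehicle, CDK2i and EZH2i tumor, 1 library each. The CLDN4 segment shrinks from 25.4% in vehicle to 13.4% in EZH2i while CLDN1 widens from 14.8% to 26.9% and CLDN12 from 4.51% to 10.2%.

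OCLN, the gene of occludin, was below the expression minimum in every tumor. It lies on chromosome 5 from 68788119 to 68853931. It was at 0.916 FPKM in vehicle, 1.11 after CDK2i and 1.08 after EZH2i, or about 95, 132 and 117 fragments. The log2 changes of 0.28 and 0.24 had counting intervals of −0.11 to 0.68 and −0.16 to 0.64, so no difference was detectable at this depth. The pseudogene OCLNP1 could share its reads. F11R, on chromosome 1 from 160965001 to 160991133, differed least between the tumors of the members above the minimum, with the deposited scaling. It was at 18.8 FPKM in vehicle, 19.5 after CDK2i and 20.8 after EZH2i, log2 changes of 0.05 and 0.14.

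TJP1, which encodes ZO-1, had the largest EZH2i change of the 10 genes with the deposited scaling. It lies on chromosome 15 from 29991571 to 30261118, on the minus strand. Its level was 6.05 FPKM in vehicle, 7.0 after CDK2i and 15.6 after EZH2i. The EZH2i tumor held 2.59 times the vehicle level, a log2 change of 1.37 with a counting interval of 1.25 to 1.49, above the −0.38 to 1.14 of genes of like level. In CDK2i the log2 change was 0.21 (0.07 to 0.35), inside the −1.14 to 0.47 of genes of like level.

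TJP1 and CLDN4 lay on opposite sides of the vehicle level in EZH2i. CLDN4 mRNA was 7.14 times TJP1 in vehicle, 10.3 times in CDK2i and 1.36 times in EZH2i, or 2.79 times in EZH2i with that trend taken out. To pass the fold and expression thresholds stated by the authors, a gene had to differ more than 2-fold and reach over log2 FPKM 3 (8 FPKM) in the higher tumor. OCLN, CLDN3, CLDN8 and CLDN23 were below this minimum in all 3 tumors and could not pass. In CDK2i, 4 of the 10 members could pass and 0 did, against 11.3% of the 6632 genes that could.

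In EZH2i, 6 members could pass and 3 did, against 13.4% of 7414 genes. TJP1 and CLDN12 were higher, as were 8.93% of those genes, and CLDN4 was lower, as were 4.42%. The counting intervals of CLDN12 and CLDN4 spanned the fold threshold, while that of TJP1 lay beyond it. The same 3 members passed between EZH2i and CDK2i, where 24.1% of 7394 genes did, with log2 differences of 1.16 for TJP1, 1.03 for CLDN12 and −1.76 for CLDN4. TJP1 and CLDN12 lay inside the range of genes of like level there, −0.28 to 1.52 and −0.51 to 1.24. CLDN4 lay outside its range of −0.66 to 0.74. The median difference over all expressed genes was 0.35. The call of CLDN4 against vehicle was lost with equal summed FPKM (−0.78, where CLDN1 at 1.01 passed instead), and that of CLDN12 after centring on the median gene (0.87). With 1 added to the FPKM both were lost, at −0.99 and 0.99. The comparisons share libraries and so are not separate evidence. The 6 members whose mean exceeded log2 FPKM 1 had a median of 0.16 for the CDK2i change and 0.46 for the EZH2i change, beside −0.11 and 0.19 over all 11109 such genes.

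**Figure D3:**
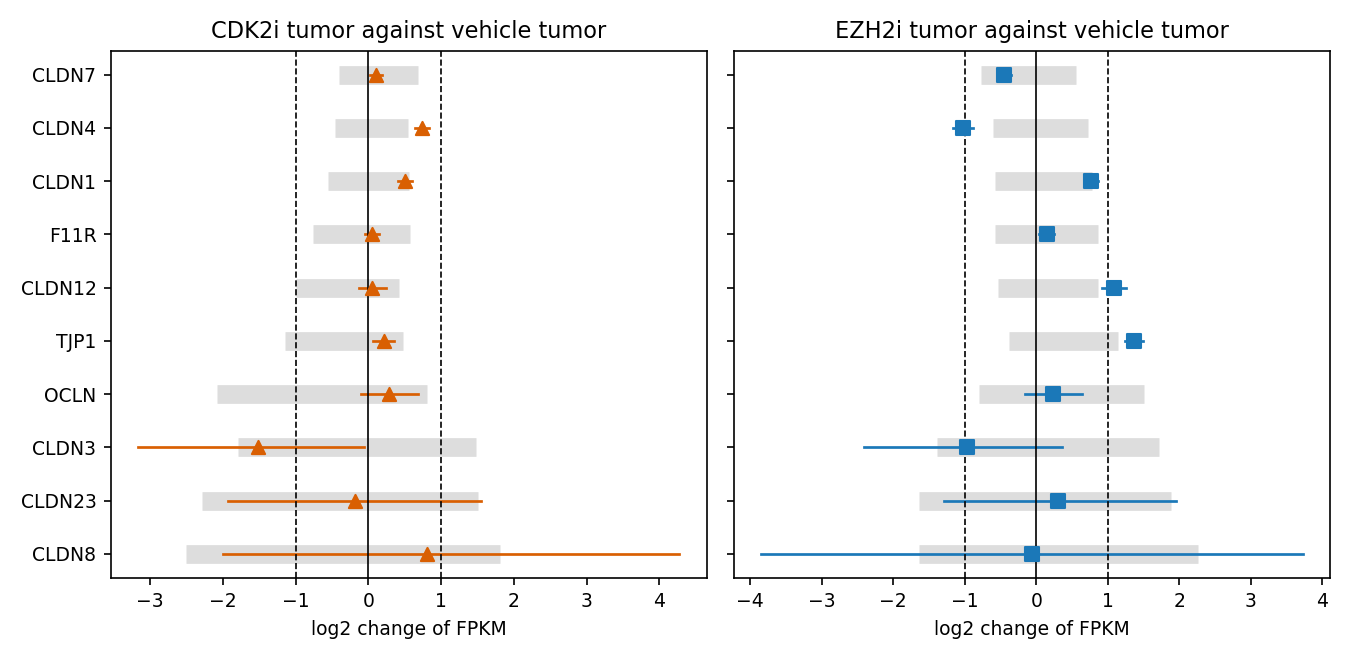
Log2 change of FPKM from the vehicle tumor (horizontal axis) for each of the 10 genes in CDK2i (left) and EZH2i (right), 1 library each, with the 95% counting interval as a coloured line, the 10th to 90th percentile of the 200 genes nearest in mean level as a grey bar, and dashed lines at the fold threshold of 2. TJP1 at 1.37, CLDN12 at 1.09 and CLDN4 at −1.02 lie past the threshold in EZH2i, and CLDN4 at 0.74 lies outside its grey bar in CDK2i.

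The direction of the members in EZH2i ran with the base composition of their transcripts. TJP1 (44.98% GC), CLDN12 (37.7%), CLDN1 (41.3%), OCLN (38.8%) and F11R (46.7%) were higher, though F11R was at −0.07 after centring on the median gene. CLDN7 (56.0%), CLDN4 (60.8%) and CLDN3 (69.2%) were lower. CLDN23 at 60.8% GC and CLDN8 at 37.3% did not keep to this, on 9 fragments or fewer. Of the members that did, CLDN3 rested on 15 and 8 fragments. The counting intervals of CLDN3 (−2.41 to 0.36) and OCLN (−0.16 to 0.64) spanned 0. The pattern with base composition held across the table. Over 10148 expressed genes with a known transcript, ribosomal protein genes left out, which are not independent replicates, the Spearman correlation of the EZH2i change was −0.582 with GC content and 0.492 with transcript length. For CDK2i it was 0.0339 and 0.0950. Of the genes with 35 to 40% GC, 91.4% were higher in EZH2i than in vehicle, and of those with 60 to 65% GC, 25.9% were.

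**Figure D4:**
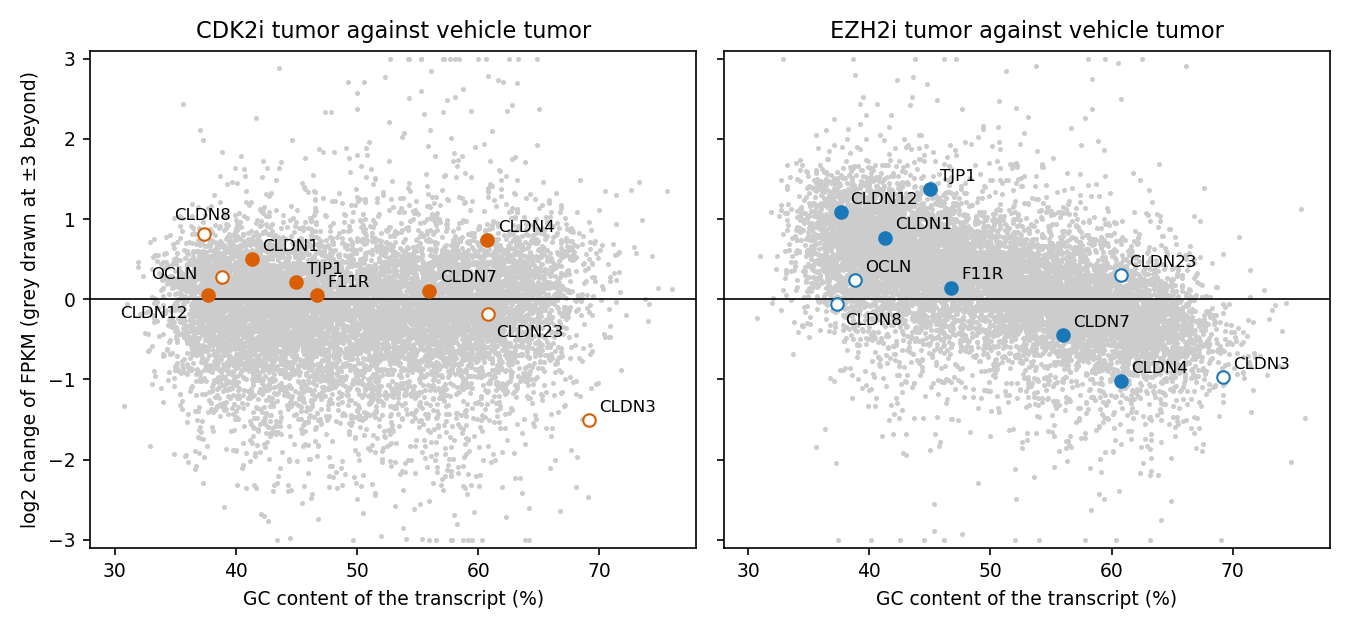
Log2 change of FPKM from vehicle (vertical axis) against GC content of the transcript (percent, horizontal axis) for expressed genes (grey) and the 10 members (coloured, open where the vehicle level was below log2 FPKM 1), for CDK2i (left) and EZH2i (right). In EZH2i the grey points slope down from left to right, with TJP1, CLDN12 and CLDN1 on the high side and CLDN7, CLDN4 and CLDN3 on the low side.

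With the trend over GC content and length taken out, the EZH2i changes were 0.70 for TJP1, 0.44 for CLDN12, 0.21 for CLDN1, −0.22 for CLDN7 and −0.66 for CLDN4, and 0 members passed. These kept their signs, whereas OCLN went to −0.56 and F11R to −0.35. The median of the 6 expressed members went from 0.46 to 0.00. Over all genes, 372 passed in EZH2i at this setting, against 990 as deposited, so the loss of calls was not particular to the members. Between EZH2i and CDK2i, CLDN4 alone of the members then passed, at −1.54. No count over all genes was made for that comparison at this setting. In CDK2i taking out the trend moved CLDN4 from 0.74 to 0.88. Whether base composition, the drug or the single tumor set these values cannot be told apart with 1 library per condition.

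Of the 14 other claudins in the table, only CLDN15, which forms a cation pore in the intestine, reached the expression minimum. It was at log2 FPKM 3.40 in vehicle, 3.60 after CDK2i and 3.71 after EZH2i, and 0 of the 14 passed the thresholds in either treated tumor. CLDN17, which forms an anion pore, was listed at 0 in vehicle and was at 0.95 in CDK2i and 1.18 in EZH2i. The other 12 claudins were below log2 FPKM 1 in every tumor, CLDN9 being the highest of them at 0.14, −0.34 and 0.76.

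Further genes of the tight junction and its polarity complexes, 41 in all, were described from a fixed list, also chosen with earlier results known. Of these, 18 could pass the thresholds against vehicle. In CDK2i 0 passed, and in EZH2i 3 did, beside the 11.3% and 13.4% of all genes given above. MPDZ (MUPP1), a multi-domain scaffold that binds claudins, was at log2 FPKM 1.53 in vehicle, 1.14 after CDK2i and 3.28 after EZH2i. PRKCI, the atypical protein kinase C of the PAR complex, was at 2.80, 3.52 and 4.04. PARD6A, its adaptor, was lower in EZH2i, at 3.67, 4.14 and 2.64. With the trend over GC content and length taken out, MPDZ at 1.03 still passed in EZH2i, while PRKCI was at 0.50 and PARD6A at −0.46.

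Between EZH2i and CDK2i, 5 of 19 genes passed, beside 24.1% of all genes. MPDZ, ARHGEF2 (GEF-H1, a guanine nucleotide exchange factor held at the junction) and the polarity adaptor LIN7C were higher in EZH2i by 2.14, 1.48 and 1.04 on the log2 scale. PARD6A and LSR, a marker of junctions at the corners of cells, were lower, with log2 differences of −1.495 and −1.372. LSR was at log2 FPKM 6.72 in vehicle, 7.37 after CDK2i and 5.99 after EZH2i, in the same order of tumors as CLDN4 and PARD6A. Its transcript has 64.0% GC and that of CLDN4 60.8%. With the trend over GC content and length taken out, MPDZ (1.33), ARHGEF2 (1.25) and LSR (−1.005) still passed between EZH2i and CDK2i. LIN7C at 0.17 and PARD6A at −0.997 did not. Outside the thresholds, among genes with no value at 0 in the pair compared, the largest changes in CDK2i were −2.33 for JAM3, 1.65 for PARD3B and −1.31 for MAGI2, all below the minimum. In EZH2i they were 2.26 for ESAM and −1.87 for CGNL1, also below it, next to MPDZ at 1.74. The ESAM value rests on 1 and 4 fragments, with a counting interval of −1.40 to 7.56. For the 29 genes whose mean exceeded log2 FPKM 1, the medians were 0.12 for CDK2i and 0.17 for EZH2i, beside the −0.11 and 0.19 of all such genes.

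**Figure D5:**
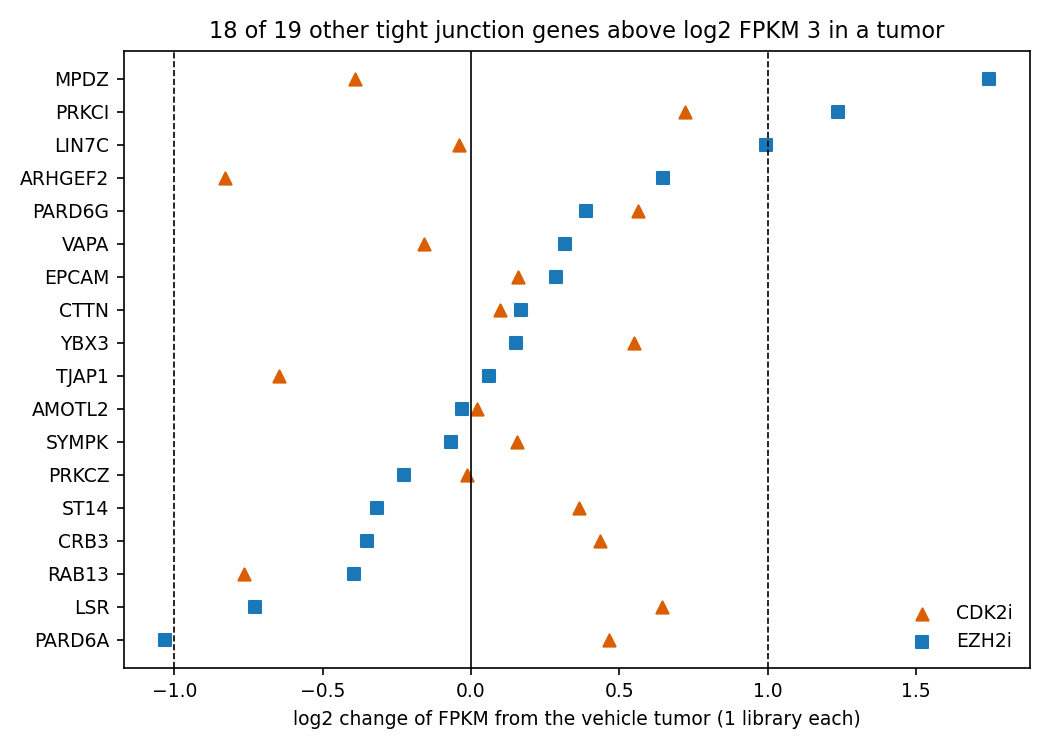
Log2 change of FPKM from vehicle (horizontal axis) in CDK2i (triangles) and EZH2i (squares) for 18 of the 19 other tight junction genes above log2 FPKM 3 in at least 1 tumor (1 is not reported here), sorted by the EZH2i change, with dashed lines at the fold threshold of 2. With the deposited scaling MPDZ and PRKCI lie above and PARD6A below the threshold in EZH2i, and no triangle reaches it.

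Factors listed as repressors or activators of junction genes, by direct or indirect action, were spread over both directions. Among the repressors, SNAI1 was at log2 FPKM 3.86 in vehicle, 4.80 after CDK2i and 3.75 after EZH2i, and SNAI2 at 4.03, 4.78 and 4.53. TWIST1 was at 4.68, 3.58 and 4.37 and passed the thresholds as lower in CDK2i. ZEB1 stayed below −3 and ZEB2 below 1 in every tumor.

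Among the factors listed as activators, ELF3, an epithelial ETS factor, differed most. It was at log2 FPKM 3.70 in vehicle, 5.43 after CDK2i and 1.85 after EZH2i, and passed as higher in CDK2i and lower in EZH2i. This is the same order of tumors as CLDN4. The repressor SNAI1 had that order too, as did KLF4 (4.63, 5.36 and 4.05) and, narrowly, GRHL1 (3.563, 4.164 and 3.561). A link of any of them to CLDN4 was not tested. OVOL1, at 1.49, 3.01 and 1.71, passed as higher in CDK2i, and OVOL2, at 4.71, 4.56 and 3.52, as lower in EZH2i. GRHL3 (1.73, 2.20 and 3.38) and TP63 (4.15, 4.42 and 5.28) passed as higher in EZH2i, while GRHL1, GRHL2, KLF4 and KLF5 did not pass in either. With the trend over GC content and length taken out, ELF3 (1.94 in CDK2i and −2.0 in EZH2i), OVOL1 (1.67) and GRHL3 (1.52) still passed, but TWIST1 (−0.90), OVOL2 (−0.92) and TP63 (0.48) did not, and SNAI1 passed as higher in CDK2i at 1.14. With 3 libraries, no correlation between these factors and the members was computed. The genes of the drug targets were at 2.94, 2.32 and 3.82 for EZH2 and 2.88, 2.83 and 3.54 for CDK2, which checks no label since the drugs act on the proteins.

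With the deposited scaling and no pseudocount, the member with the largest change from vehicle was CLDN3 in CDK2i, at −1.51. Over the 6 scaling, pseudocount and trend alternatives this change ran from −1.66 to −0.45. Over the 3 libraries and 7572 genes, the genes whose pair of changes lay nearest to its own were LURAP1L (−1.42 in CDK2i and −0.95 in EZH2i), MTND1P23 (−1.58 and −0.90) and SNHG5 (−1.62 and −1.01). The likeness was the distance of both log2 changes, 0.0987, 0.0998 and 0.115, and the pattern of CLDN3 itself rested on 15 fragments or fewer.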

How the data were processed

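RNAseq of 3 tumors was analysed, 1 library each of vehicle, CDK2i and EZH2i. The authors deposited log2 FPKM per gene symbol. Their processing notes name CASAVA, STAR and hg19, while the counting tool, gene lengths and versions are not given in the sources used here. A value of −9 was read as an FPKM of 0, but entered the counts of genes past the thresholds as −9 where no pseudocount was added. Changes are differences of log2 FPKM without a pseudocount. The limma p-value of the authors was left out, because single libraries give no error. Depth was recovered from steps of 1 fragment (316 to 360 genes per library). Fragment numbers and counting intervals used the length of the canonical transcript of each gene in GENCODE 44 on GRCh37. Expressed genes averaged over log2 FPKM 1 without any −9, and 92.1% of these 11109 matched a transcript, 701 by an older symbol. The trend over GC content and log length was a polynomial of degree 3 over expressed genes other than 81 ribosomal protein genes. The members and gene lists were chosen with earlier results of these data known. Named were all members, other claudins above log2 FPKM 1, other tight junction genes past the thresholds or among the 3 largest changes, and fixed regulators. 1 gene of the list is counted but not reported here. Scripts were tested on simulated data and used Python 3.11.15, numpy 2.4.6, pandas 2.3.3, scipy 1.17.1 and matplotlib 3.10.9.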

Additional observations from a re-analysis of the deposited data

How the results depend on the processing

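No paired analysis was possible because each condition has 1 library, and for the same reason no replicate could be left out. Counts of genes past the thresholds are given below for the settings that moved them by over 1.5 times. The number of genes that could pass can differ between settings and is not given, so these counts allow no comparison of shares. With a fold of 1.5, 1 member (CLDN4), 6 other tight junction genes and 1947 of all genes passed in CDK2i, and 7 other tight junction genes and 2710 of all genes in EZH2i. With a fold of 3, 250 of all genes passed in CDK2i, and 0 members, 1 other tight junction gene and 186 of all genes in EZH2i, with 1 member between EZH2i and CDK2i. Without an expression minimum, 1 member (CLDN3), 7 other claudins, 6 other tight junction genes and 11703 of all genes passed in CDK2i, and 7, 9 and 10795 of the last 3 sets in EZH2i. These counts include genes listed at 0 in 1 library of the pair, which entered as −9 and so passed without an estimated fold. Among the claudins passing in CDK2i, these were CLDN2, CLDN14, CLDN17, CLDN20 and CLDN24. With a minimum of log2 FPKM 1, 1 other tight junction gene and 2037 of all genes passed in CDK2i. In EZH2i, 1 other claudin (CLDN17, listed at 0 in vehicle), 7 other tight junction genes and 2231 of all genes passed. With a minimum of 5, 196 of all genes passed in CDK2i, and 1 member (CLDN4), 0 other tight junction genes and 262 of all genes in EZH2i, with 1 member between EZH2i and CDK2i. Adding 1 to the FPKM left 1 member (TJP1) in EZH2i. With equal sums without ribosomal protein and mitochondrial genes, CLDN4 at −0.99 was lost there. Equal summed FPKM gave 5 other tight junction genes and 1504 of all genes in EZH2i. Centring on the median gene left 1 member (CLDN4) between EZH2i and CDK2i. With the GC and length trend removed, 0 members, 1 other tight junction gene and 372 of all genes passed in EZH2i, and 1 member between EZH2i and CDK2i. The cause of these shifts was not tested beyond the construction of each setting.

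Over the 6 scaling, pseudocount and trend alternatives, the EZH2i change ran from 0.70 to 1.61 for TJP1, 0.44 to 1.33 for CLDN12, 0.21 to 1.01 for CLDN1, −1.24 to −0.66 for CLDN4, −0.35 to 0.39 for F11R and −0.56 to 0.48 for OCLN. In CDK2i CLDN4 ran from 0.60 to 0.91. The share of higher genes among all genes past the thresholds was 28.9% in CDK2i and 66.9% in EZH2i, against 48.5% and 35.6% after centring, 46.7% and 88.7% with equal summed FPKM, 17.5% and 72.1% with equal sums without ribosomal protein and mitochondrial genes, and 47.2% and 40.9% with the trend removed. The median change of expressed genes was −0.11 and 0.19 as deposited and 0.04 and 0.43 with equal summed FPKM. Depth limits CLDN3, CLDN8 and CLDN23, which rest on 15 fragments or fewer.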

Other observations

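CLDN17 was the claudin listed at 0 in vehicle with the highest values in the treated tumors. Its levels in CDK2i and EZH2i stand for about 46 and 49 fragments. In all, 11 genes of the table were listed at 0 in vehicle and above an FPKM of 1 in both treated tumors, 35 genes were listed at 0 in CDK2i alone by the same measure and 6 in EZH2i alone. An exact 0 in a table without counts can be a failed estimate, so no fold is given for these genes. CLDN17 lies on chromosome 21 from 31537883 to 31539123, 47200 bases from CLDN8, which stayed at 2 to 4 fragments in every tumor. It was singled out after its values were seen.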
